A study of Aedes albopictus with 6 samples.

Results

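A stretch of 21.7 kb on scaffold NW_021838602.1 of the Asian tiger mosquito Aedes albopictus, bases 269047 to 290783, held 209 of the 22773 small RNA tags that the study listed as differing between the sexes. A tag is 1 small RNA of fixed start and end. Members are all listed tags lying wholly inside these bases, so the rule used position and not counts. Small RNAs had been sequenced from whole bodies of 2-day-old adults, 3 libraries of virgin females and 3 of males. The table has 1 count column ending in F and 1 ending in M. They were read here as the pooled female and male libraries from those letters alone, and every value below rests on that reading. No value has a replicate behind it, so no test across samples was possible. Levels are TPM, the count per 1000000 of a total per sex. These totals, recovered from the deposited TPM values, were 2677061 in females and 2060045 in males. The listed tags themselves sum to only 268842 female and 222446 male counts. Brackets hold 95% intervals, which cover counting error and not the spread between mosquitoes or libraries. The list contains only tags at least 2-fold apart between the sexes, with a sum of both counts of 6 or more, so sums below are sums of listed tags and not the whole output of the stretch.

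PIWI-interacting RNAs (piRNAs) are small RNAs, somewhat longer than microRNAs, that guide PIWI proteins to silence transposons in animal germ lines. Many are cut from long transcripts of genomic piRNA clusters, and in Aedes mosquitoes they are also made in body tissues outside the gonads. Precursors are often cut head to tail, and the final length is set by trimming of the 3′ end, so piRNAs of 1 source commonly share a 5′ end and differ at the other. Neither strand, sequence nor gene annotation of these positions was used here, so "start" below means the lower and "end" the higher coordinate. In whole bodies, a lower count from fewer cells that make a small RNA and one from less RNA per cell cannot be told apart.

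The cluster was mostly higher in males. Of its 209 tags, 153 were male-higher and 56 female-higher, so 73.2% were male-higher, against 31.7% of all listed tags, while 68.3% of all listed tags were female-higher. In sum the tags had 3674 counts in males and 1651 in females, a TPM of 1783 against 617. The male sum was thus 2.89-fold higher (2.73 to 3.07). Other ways to scale the columns brought this ratio down to as little as 1.28, so its size depends on the scaling.

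The male-higher share was above that of the whole list at each level of counting. With 6 counts in sum, 25 of 36 tags were male-higher, 69.4%, against 22.4% of all listed tags with that sum. At 7 to 9 counts the share was lowest, 33 of 55 tags or 60%, against 24.1%. At 10 to 19 counts the shares were 80.0% of 55 tags and 34.8% of all listed ones. At 20 to 49 counts they were 83.3% of 42 and 47.9%. For the 21 tags with 50 or more counts the gap was narrower, 76.2% against 62.7%. Among all tags with 20 or more counts, 51 members were male-higher and 12 female-higher, and 52.5% of all listed tags of that depth were male-higher.

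Most members were counted in only a single sex, as were most tags of the whole list. Counted in both were 75 of the 209 members and 6223 of the 22773 listed tags. Listed at 0 in females were 95 tags, 45.5%, against 17.0% of all listed tags, and listed at 0 in males were 39, against 55.7%. No value of 1 occurs in the table, so a listed 0 can stand for 0 or 1 count. Of the 75 tags counted in both sexes, 58 were male-higher, with a median fold of 5.85, and 17 were female-higher, with a median fold of 2.95. The same medians were 4.16 and 3.85 over all nuclear listed tags. Among tags counted in both sexes, 21 of the 58 male-higher and 0 of the 17 female-higher members were at least 8-fold apart. Over all nuclear listed tags these were 385 of 3158 and 170 of 2865. With 17 female-higher members, the 0 is too little to read as a trait of the cluster. The comparison regions described at the end had 0 such female-higher tags as well.

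**Figure D1:**
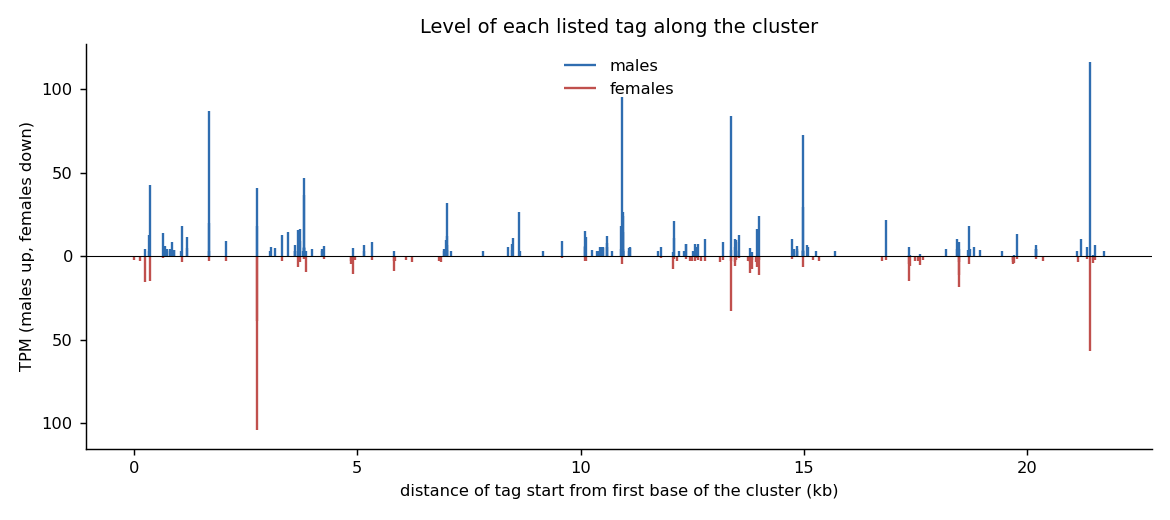
Level of each of the 209 tags, in TPM, against the distance of its start from the first base of the cluster in kb, with males drawn upward and females downward. A few tall male lines stand at separate places, the tallest, at a TPM of 116, near the far edge. The tallest female line, at a TPM of 104, lies 2.75 kb in.

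Few positions held much of the signal. The highest tag in males was also second in females. It is t00010755, a 29-nt tag at NW_021838602.1:290442-290470 near the far edge, which had 239 male and 152 female counts. That is a TPM of 116 against 56.8, 2.04-fold higher in males (1.66 to 2.52), close to the 2-fold edge of the list. The next tags in males had far lower female counts. A 27-nt tag at bases 279974 to 280000 had 196 male and 13 female counts, 19.6-fold higher in males (11.2 to 37.5). A 26-nt tag at 270728 to 270753 had 179 male and 8 female counts, a ratio of 29.1 (14.4 to 68.4). These last 2 levels in males, TPM 95.1 and 86.9, were close to each other, and their male counting intervals overlapped (169 to 225 and 154 to 207 counts).

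A 25-nt tag at 282409 to 282433 was abundant in both sexes, with 173 male and 88 female counts, a TPM of 84.0 against 32.9 and a ratio of 2.56 (1.97 to 3.34). The 27-nt tag at 284018 to 284044 had 150 male and 17 female counts and was 11.5-fold higher in males (6.93 to 20.2). Sixth in males was the 26-nt tag at 272860 to 272885, with 96 male and 4 female counts, 31.2-fold higher (11.8 to 117). Of the 6 highest tags in males, then, 2 were under 3-fold and 4 were more than 10-fold apart. The 10 highest tags of each sex held 36.6% of the male and 51.7% of the female counts of the cluster.

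The female signal rested on 1 position to a larger degree. The highest tag in females, t00011519, is a 27-nt tag at bases 271792 to 271818 with 279 female and 84 male counts. Its TPM was 104 in females and 40.8 in males, 2.56-fold higher in females (2.0 to 3.30), and it alone made up 16.9% of the female counts of the cluster. The 28-nt tag with the same start, ending 1 base later at 271819, had 104 female and 37 male counts and was 2.16-fold higher in females (1.47 to 3.24). Further down were a 29-nt tag at 287523 to 287551, with 49 female and 18 male counts, and a 26-nt tag at 269292 to 269317, with 42 and 9. The female level was 2.10-fold higher (1.20 to 3.82) for the former and 3.59-fold (1.72 to 8.39) for the latter. The intervals of these 4 ratios overlapped.

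More tags were listed in males alone, 95, than in females alone, 39, and top counts of sets of unequal size are not directly comparable. With that limit, tags listed in males alone reached higher counts than those listed in females alone. The highest were a 30-nt tag at 276057 to 276086 with 66 male counts (51.0 to 84.0), a 25-nt tag at 270728 to 270752 with 41 (29.4 to 55.6) and a 30-nt tag at 280001 to 280030 with 30 (20.2 to 42.8). In females alone the highest were a 24-nt tag at 282495 to 282518 with 16 counts (9.15 to 25.98), a 24-nt tag at 273909 to 273932 with 12 and a 27-nt tag at 288725 to 288751 with 12. The tags at the edges were weak, with 6 female and 0 male counts for the first tag, at 269047 to 269073, and 7 male and 0 female counts for the last, at 290759 to 290783. No listed tag of the scaffold lay before the first, and the next after the last began at base 305706, a gap of 14.9 kb.

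**Figure D2:**
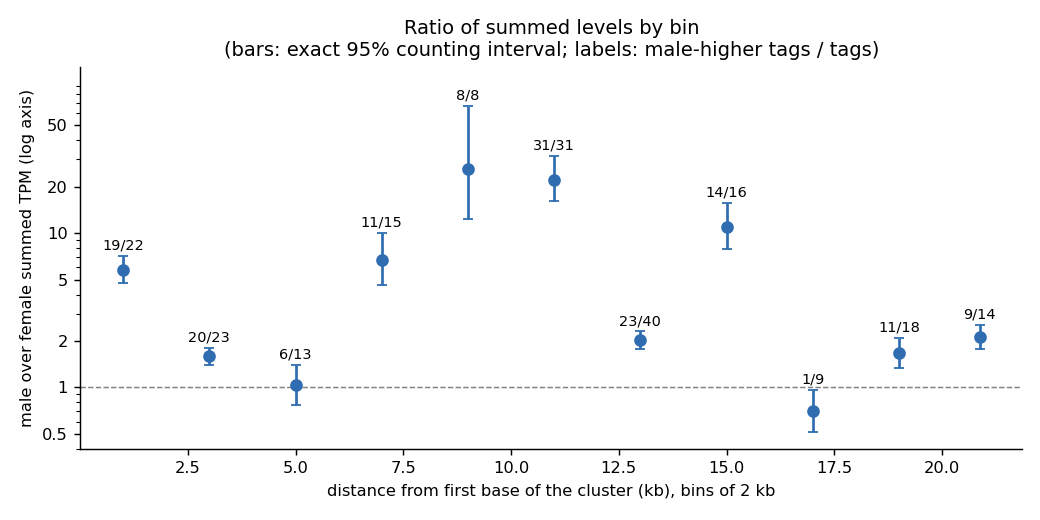
Ratio of male over female summed TPM (log axis) in 11 bins of 2 kb (the last is shorter) against the distance from the first base of the cluster, with exact 95% counting intervals and the number of male-higher tags of all tags above each point. The ratio peaks in the middle, at 26.2 and 22.2, and lies below 1 in a single bin, at 0.71.

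The sex ratio was uneven along the stretch. In bins of 2 kb, the ratio of summed levels ran from 0.71 to 26.2. It was above 1 in 10 of 11 bins, and in 1 of these, the third, its interval included 1. The first bin, from base 269047, held 22 tags with 540 male and 121 female counts, a ratio of 5.80 (4.75 to 7.12). It was 3.60 without its stack at 270728 and 8.74 without the tag at 269292. In the second, which holds the abundant female-higher pair at 271792, the counts were 566 and 462 and the ratio 1.59 (1.41 to 1.80), although 20 of its 23 tags were male-higher. Without that pair the ratio was 7.32 (5.75 to 9.42), and without the stack at 272832 it was 1.05. The third bin had 83 male and 104 female counts, a ratio of 1.04 (0.77 to 1.40), and 6 of 13 tags male-higher. Its ratio was 0.78 with TMM factors.

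The fourth bin, from base 275047, had 11 of 15 tags male-higher and 4 listed in females alone. Its ratio was 6.73 (4.64 to 10.02), but 1.75 (1.08 to 2.85) without the stack at 276032. All 8 tags of the fifth bin, from base 277047, were male-higher, with 141 male and 7 female counts and a ratio of 26.2 (12.4 to 66.3), or 39.6 without the tag at 278619. All 31 tags of the sixth bin, from base 279047, were male-higher too, with 667 male and 39 female counts and a ratio of 22.2 (16.1 to 31.5). The intervals of these 2 bins overlapped. Without the stack at 279947 the ratio of the sixth was 17.0 (10.8 to 28.3).

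Past the middle, the densest bin was mixed. From base 281047 it held 40 tags, 23 of them male-higher, with 589 male and 379 female counts and a ratio of 2.02 (1.77 to 2.30). The bin from 283047 leaned to males again, with 14 of 16 tags and a ratio of 11.0 (7.85 to 15.7), or 6.24 (3.82 to 10.7) without the stack at 284013. The bin from 285047 was the only one higher in females, with 116 female and 63 male counts and 8 of 9 tags female-higher. Its level was 1.42-fold higher in females (1.03 to 1.96), and 45 of its 63 male counts came from 1 male-higher tag at 285877 to 285903. Without that tag it was 4.70-fold higher in females (2.84 to 8.23). Without the female-higher stack at 286393 it was instead 1.27-fold higher in males (0.84 to 1.94). The last bins, from 287047 and 289047, had ratios of 1.66 (1.33 to 2.08) and 2.12 (1.78 to 2.54), and the former was 3.34 without its female-higher stack at 287489. With RLE factors, 5 of the 10 bins with a ratio above 1 turned to females, those at 1.04, 1.59, 1.66, 2.02 and 2.12.

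Merging tags that overlap by at least 1 base gave 113 stacks. They covered 3734 bases, 17.2% of the stretch, with a median gap of 75 bases between neighbours and a largest gap of 1014 bases, between 284770 and 285785. Single tags made up 65 stacks, and the other 48 held 144 tags. Summed levels were higher in males in 81 stacks and in females in 32. Of the 48 stacks with 2 or more tags, 30 held male-higher tags alone, 8 held female-higher tags alone and 10 held both. Overlapping tags may share a source and were not taken as independent. The strand and whether tags match elsewhere were not used. Among single-tag stacks, 42 were male-higher and 23 female-higher. These splits were not counted for stacks over the whole list, so they have no background beside them.

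**Figure D3:**
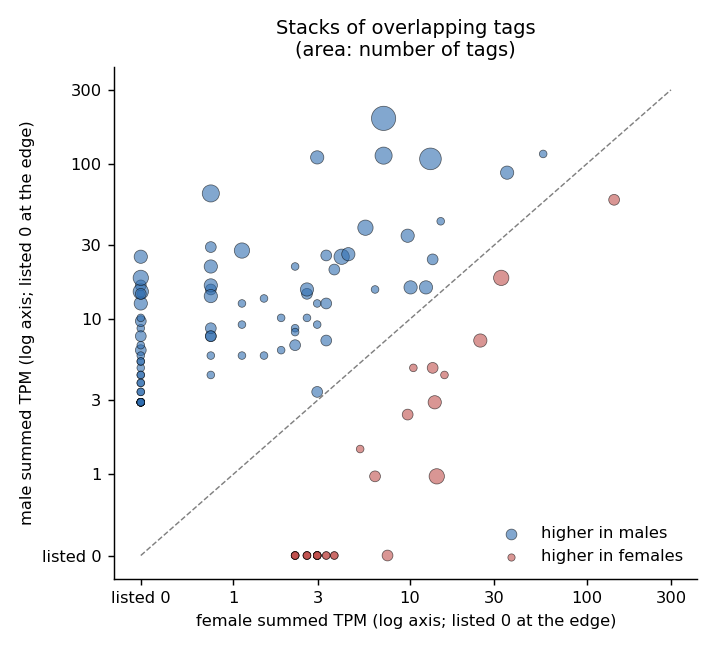
Summed TPM of each of the 113 stacks in females (horizontal) and males (vertical), both on log axes with a listed 0 drawn at the edge, point area showing the number of tags and the dashed line equal levels. The largest stack, of 10 tags, is the highest in males at a TPM of 197, and the highest in females, at 143, is a stack of 2 tags.

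The 8 stacks with the highest summed level held 37 tags, 47.9% of the male and 43.2% of the female counts. The largest, at bases 279947 to 280031, held 10 tags within 85 bases, all male-higher, with 405 male and 19 female counts and a ratio of 27.7 (17.5 to 46.5). Some of its tags lay head to tail or nearly so. Tags of 26 and 28 nt ended on base 279974, the first base of the 27-nt tag with 196 male counts. They thus overlapped the 27-nt tag by 1 base. That tag ended on base 280000, and 4 tags of 26, 28, 30 and 31 nt began on the next base, 280001. Those 4 had 7, 6, 30 and 50 male counts in that order of length, and 0, 0, 0 and 2 female counts. The other 3 tags did not keep to this order. Those at 279990 and 279991, with 9 and 55 male counts, ran across base 280000 and ended on 280017, and the one at 280004 to 280030 had 6.

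The stack at 272832 to 272924 held 8 tags, 7 of them male-higher, with 222 male and 35 female counts and a ratio of 8.24 (5.75 to 12.1). Most of its male counts came from 4 tags that start on base 272860 and end on 4 successive bases, 272885 to 272888, with 96, 75, 11 and 10 male counts. They had 4, 4, 2 and 0 female counts. At its far end lay a 27-nt tag of the opposite direction, at 272898 to 272924, with 25 female and 7 male counts, which made up most of the female counts of the stack.

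The stack at 284013 to 284044 held 5 tags, all male-higher, with 233 male and 19 female counts and a ratio of 15.9 (9.98 to 26.95). Here the shared base was the end. Tags starting on 284015, 284016 and 284018 all ended on 284044, with 7, 61 and 150 male counts. The stack at 276032 to 276087 also held 5 male-higher tags, with 133 male and 2 female counts, a ratio of 86.4 whose interval of 23.5 to 721 shows how little the 2 female counts fix it. Of these, 3 began on base 276057.

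**Figure D4:**
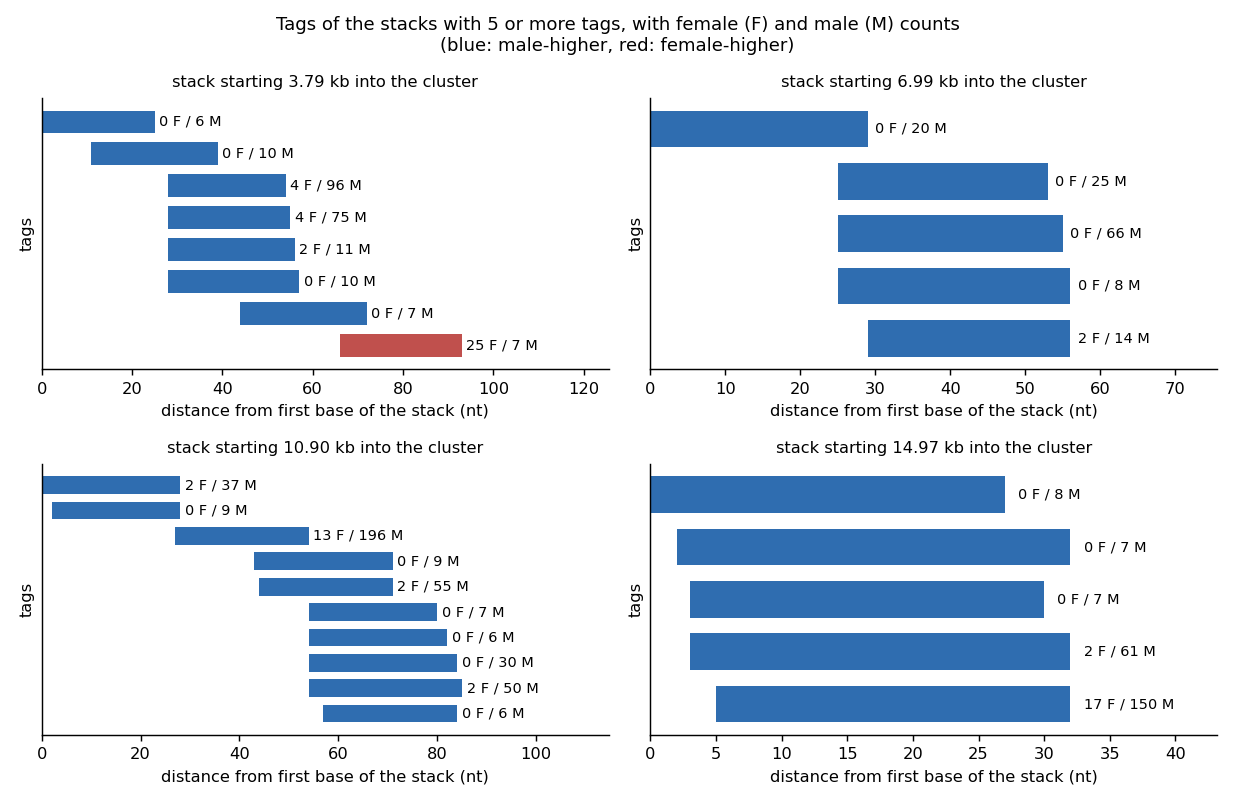
Tags of the 4 stacks with 5 or more tags, drawn to scale as bars against the distance in nt from the first base of the stack, with the female (F) and male (M) counts of each. Tags that share a start form steps at their right edge, as with the 4 tags at 4 female and 96 male, 4 and 75, 2 and 11, and 0 and 10 counts, and 1 bar, with 25 female and 7 male counts, is female-higher.

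The other 4 of the 8 highest stacks held few tags. At 270728 to 270759, 3 tags shared a start and differed in length at 25, 26 and 32 nt. They had 227 male and 8 female counts, a ratio of 36.9 (18.4 to 86.5). The pair at 271792 to 271819 was the only one of the 8 higher in females, by 2.44-fold (1.98 to 3.01), with 383 female and 121 male counts. It held 23.2% of the female counts of the cluster, and without it the male over female ratio of the cluster was 3.64 (3.41 to 3.89). At 282407 to 282437 the ratio was 2.48 (1.92 to 3.21), and the single tag at 290442 is described above. With RLE factors these ratios were 1.097 (0.85 to 1.42) and 0.91 (0.74 to 1.117).

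Runs of neighbouring stacks of 1 direction varied in length, and many held 1 stack. Since 81 of the 113 stacks were higher in males, long male-higher runs can arise in any order, and run lengths were not tested. In the longest run, 21 neighbouring stacks from base 275995 to 281153 were all higher in males in sum. They held 53 tags, 52 of them male-higher and 39 listed at 0 in females, with 1055 male and 74 female counts and a ratio of 18.5 (14.6 to 23.8). The exception was a 26-nt tag at 281106 to 281131 with 21 female and 5 male counts. Without this run the ratio of the cluster was 2.16 (2.03 to 2.30). The longest runs of female-higher stacks had 5 stacks each. The run at 274873 to 275934 held 7 tags with 69 female and 6 male counts, 8.85-fold higher in females (3.87 to 24.95). The run at 286393 to 286727 held 7 tags with 102 female and 18 male counts, 4.36-fold higher (2.63 to 7.65). These runs were picked after their values were seen and are given as a description.

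Tags in the cluster more often shared a start than an end. There were 45 pairs with a common start and 16 with a common end, so 73.8% of such pairs shared the start. Over all nuclear listed tags the numbers were 1630 and 1749, or 48.2%. The cluster was not alone in this. The share was 63.1% in the other 174 listed tags of the scaffold and 74.8% in a cluster of NW_021839130.1 at 50.8 Mb, but 32.8% in a dense cluster of NW_021837267.1 at 27.2 Mb. Pairs within a stack are not independent, and the difference was not tested.

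Length variants of 1 start mostly had the same direction. Of the 45 pairs that share a start, 42 had 1 direction, as did all 16 pairs that share an end. This was also common over all nuclear listed tags, at 91.1% of pairs with a shared start and 89.3% of pairs with a shared end. The exceptions were 3 pairs. At start 281599, the 27-nt tag had 15 male and 2 female counts and the 28-nt tag, 1 base longer, 0 male and 7 female counts. At start 290569, the 27-nt tag had 14 male and 0 female counts and the 29-nt tag 0 and 6. At start 282409, the 25-nt tag with 173 male and 88 female counts had a 29-nt partner with 0 male and 7 female counts. In each of the 3 the longer tag was the female-higher one and had 6 or 7 counts.

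Neighbouring tags sometimes lay end to end. In 9 pairs the start of 1 tag was the base right after the end of another, against a median of 2 pairs over the 40 distances from an overlap of 20 bases to a gap of 19. As high or higher were overlaps of 17 and 11 bases, with 10 and 9 pairs, and a gap of 3 bases, with 9. All 9 end-to-end pairs had tags of 1 direction, as did 79.2% of such pairs over all nuclear listed tags, and 4 of them shared the tag at 279974 to 280000. With each start and end counted once, there were 5 such pairs, and 6 of the 40 distances had 5 or 6, so end to end did not stand apart. Over all nuclear listed tags the end-to-end distance had 366 pairs, against a median of 183.5. An overlap of 10 bases, which partners of the ping-pong cycle leave when piRNAs cut transcripts to make new ones, had 2 pairs in the cluster, equal to its median, and 259 over all nuclear listed tags. These counts mix strands, while ping-pong partners lie on opposite ones, so they do not measure such partners.

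**Figure D5:**
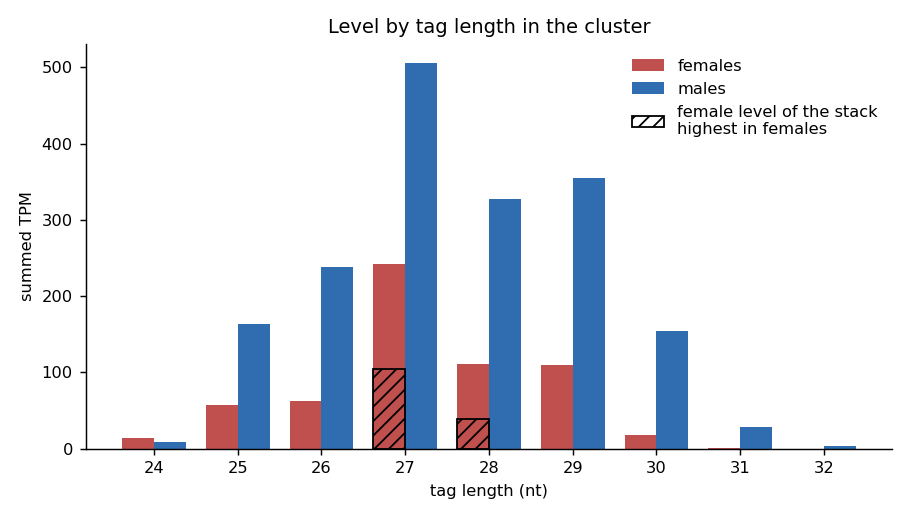
Summed TPM by tag length in nt for females and males, with hatching for the part of the female level that came from the stack at 271792 to 271819. Both sexes are highest at 27 nt, males at 505 and females at 242, and at 30 nt males stand at 154 and females at 18.3.

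The tags were 24 to 32 nt long, with most counts at 27 nt in both sexes. The whole list runs from 24 to 33 nt, so the range of the members was set by the list. Tags of 27 or 28 nt were 50.7% of the 209 members (43.7 to 57.7) and 48.2% of all nuclear listed tags. Tags of 29 or 30 nt were 21.5% (16.2 to 27.7), against 16.7%. Tags of 24 or 25 nt were 11.5% (7.498 to 16.6), against 17.9%. Tags over 30 nt were rare, with 3 members, all male-higher, which is too few to read as a trait of that length. Over all nuclear listed tags, 256 of the 543 tags of 31 to 33 nt were male-higher. These intervals ignore that members overlap and are likely too narrow.

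The sex ratio differed between lengths, and single stacks set part of this. It was 0.58 at 24 nt (0.31 to 1.06), where 5 tags had 17 male and 38 female counts, and moved between 0.21 and 1.004 when 1 of the 5 was left out. It was 2.84 (2.34 to 3.46) at 25 nt. It was 3.80 (3.18 to 4.55) at 26 nt, where it was 2.53 without the stack at 270728. At 27 nt it was 2.09 (1.89 to 2.31), but 3.38 (2.99 to 3.82) without the tag at 271792. At 28 and 29 nt it was 2.93 (2.55 to 3.37) and 3.23 (2.82 to 3.71), whose intervals overlap. At 30 nt it was 8.43 (6.23 to 11.6), from 318 male and 49 female counts, and all 15 tags of 30 nt were male-higher. The background share was not counted for 30 nt alone. Of tags of 29 or 30 nt, 40 of 45 members and 1215 of 3727 nuclear listed tags were male-higher. Leaving out the stack at 276057 brought the 30-nt ratio to 6.68 (4.91 to 9.27), and leaving out the tag at 269414, with 40 of the female counts, to 33.2. At 31 nt 2 tags had 58 male and 2 female counts. Tags of 29 or 30 nt were 40 of 153 male-higher members, 26.1% (19.4 to 33.9), and 5 of 56 female-higher members, 8.93% (2.96 to 19.6). Over all nuclear listed tags these shares were 17.97% and 16.2%.

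By counts, the difference between the sexes at 27 or 28 nt rested on 1 stack. Tags of 27 or 28 nt held 57.3% of the female counts (54.9 to 59.7) and 46.7% of the male counts (45.1 to 48.3). Without the stack at 271792 to 271819, whose tags are of 27 and 28 nt, the shares were 44.4% (41.6 to 47.2) and 44.9% (43.2 to 46.5). Tags of 29 or 30 nt held 20.8% of the female and 28.6% of the male counts, and 27.1% and 29.5% without that stack. Tags of 24 or 25 nt then held 15.1% of the female and 9.96% of the male counts. With the stack they held 11.6% (10.1 to 13.3) and 9.64% (8.7 to 10.6), and these intervals overlapped. Leaving out 27- and 28-nt tags raises the shares of all other lengths, and here more so in females. The wider gap at 24 or 25 nt without the stack follows from this. Tags over 30 nt held 0.16% of the female and 1.83% of the male counts without the stack.

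Set beside the rest of the list, the cluster was one of several male-leaning stretches. The 174 listed tags further along the same scaffold, from base 305706 to 497203, had 140 male-higher members, 80.5%, and a sum 4.35-fold higher in males (4.11 to 4.61). They were sparser, at 0.91 tags per kb against 9.62 in the cluster. The cluster had been picked as a cluster of tags, so its higher density follows from that choice. The cluster on NW_021839130.1 had nearly the same lean, with 73.2% of 395 tags male-higher and a ratio of 2.90 (2.80 to 3.0), at 5.84 tags per kb. The dense cluster on NW_021837267.1 had 265 of 268 tags male-higher and a ratio of 8.0 (7.60 to 8.44), at 34.6 tags per kb. Its tags were also shorter, with 37.3% at 24 or 25 nt. These comparison regions were chosen with their values known, and no difference between regions was tested. No source used here says whether tags of the cluster also match other positions of the genome.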

How the data were processed

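Small RNAs of whole bodies were sequenced from 3 libraries labelled Female and 3 labelled Male. Per the labels' protocols, small RNAs were taken from a denaturing gel and ligated to adaptors at both ends. Per the submitters' processing notes, reads were handled with Trimmomatic 0.30. No source used here gives the aligner, counter, genome build, tag filter or how the libraries were pooled.

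The authors deposited 1 table with whole-number counts per tag, not normalised, in 1 column per sex. The deposited TPM values equal the count over a constant total per column, within 0.00305 TPM, with a count of 0 written as 0.01 and no length term. The totals were recovered from that ratio. The log2 values that the authors deposited equal the log2 of male over female TPM. No value lies below 1.0 in size.

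Members and comparison regions were chosen with earlier results of these data known. The planned edgeR quasi-likelihood test needs replicates. With 1 column per sex it was not run, and no p-value is given. Ratios have exact conditional (Clopper-Pearson) 95% intervals, counts exact Poisson ones and shares exact Clopper-Pearson ones. These cover counting error only. Reads carry no molecular identifiers, so reads and not molecules were counted, and the intervals may be too narrow even for that error. Interval and merging code was tested on simulated data. Named tags are the 6 highest per sex, the 3 most counted per sex among those listed at 0 in the other, and the edge tags. Named stacks are the 8 highest and any of 5 or more tags. Other members are named as parts of these or of the patterns described, and were chosen after their values were seen. Alternative scalings used the listed tags' own sums or TMM, RLE and upper quartile factors (edgeR 4.0.16, R 4.3.3), and the list holds no unchanged tags to anchor them. Python 3.11.15, scipy 1.17.1 and pandas 2.3.3 were used.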

Additional observations from a re-analysis of the deposited data

How the results depend on the processing

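No paired analysis was possible because the table has 1 column per sex and carries no replicate numbers, and leaving out each replicate was not run for the same reason. Scaling moved every ratio by 1 factor, on the log2 scale by -0.42 with TMM, -1.17 with RLE and 0.08 with upper quartile factors. The male over female ratio of the cluster was 2.69 if scaled by the listed tags' own sums, 2.17 with TMM and 1.28 with RLE factors. It was 2.60 without the stack with the highest summed TPM of both sexes, at 279947. In alternatives added after seeing the data, it was 3.64 without the stack with most female counts and 2.16 without the longest male-higher run. The other alternatives for this ratio stayed inside its interval. RLE factors turned the tag at 290442 to 0.91, and the bins from 271047, 273047, 281047, 287047 and 289047 to 0.71, 0.46, 0.89, 0.74 and 0.94. The bin from 273047 also turned to 0.96 under the listed tags' own sums and to 0.78 with TMM. With at least 20 counts, 51 tags were male-higher and 12 female-higher. Joining tags over gaps of up to 50 bases left 70 stacks, 16 of them higher in females. Leaving out 1 stack, also added after seeing the data, turned the bin from 285047 to 1.27, that from 273047 to 0.79 and the 24-nt tags to 1.004. In bins of 1000 bases, added after seeing the data, 19 of 22 were higher in males. With starts and ends counted once, end-to-end pairs fell to 5.

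Length shares of counts moved past their intervals as follows. Without the stack with the highest summed TPM, male shares were 10.8% at 24 to 25 nt and 14.5% at 26 nt. They were 43.0% at 27 to 28 nt, 31.2% at 29 to 30 nt and 0.46% at 31 to 33 nt. In that last class the female share was 0%. Without the stack with most female counts, female shares were 15.1%, 13.3%, 44.4% and 27.1% for the first 4 classes, and the male share at 27 to 28 nt was 44.9%. As shares of tags, females had 13.2% at 26 nt, 18.4% at 29 to 30 nt and 0.88% at 31 to 33 nt, and males 15.9% at 26 nt, 49.4% at 27 to 28 nt and 24.1% at 29 to 30 nt. Depth limits single tags, whose median sum of both counts was 11.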

Other observations

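The ID numbers of the table follow the order of the summed count of both sexes over all listed tags. They run from 686 to 286607, so the 22773 listed tags are 7.95% of the numbers up to the highest. Members of the cluster carry numbers from 10755 to 285798. The tags whose numbers are missing from the list were not analysed here.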
